A study of Mus musculus with 6 samples.

Results

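The immunity-related GTPases are interferon-induced proteins with which mouse cells attack the vacuoles of intracellular parasites and bacteria. The 6 genes described here were taken by their names, Irgm1, Irgm2, Igtp, Iigp1, Tgtp1 and Tgtp2, out of 21959 genes in the expression table, and all 6 were found and passed the filter on low counts. The RNA came from wild-type bone marrow-derived macrophages, primary cells differentiated in culture from mouse bone marrow, after 24 h in equal parts of fresh and conditioned medium. In 3 libraries (P1, P2 and P3) the medium had been conditioned by HTR2C-positive alveolar macrophages, and in 3 libraries (N1, N2 and N3) by HTR2C-negative ones. HTR2C is the serotonin receptor 2C, and alveolar macrophages are those that live in the air spaces of the lung. They were taken from mice aged 8 to 12 weeks and cultured for 48 h. Cells kept without conditioned medium were not analysed here. The comparison asks how the medium of HTR2C-positive cells alters the receiving macrophages relative to that of HTR2C-negative cells. The labels do not say whether the 3 libraries of a group are separate cultures, so p-values measure the spread among these libraries alone, part or all of which may be technical.

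As background, the family falls into a pair of classes that differ in 1 motif of the GTP-binding site. Irgm1, Irgm2 and Igtp (also called IRGM1, IRGM2 and IRGM3) are the regulators, which carry a methionine in that motif, sit on the cell's own membranes and keep the effectors inactive there. Iigp1 (IRGA6), Tgtp1 and Tgtp2 (both IRGB6) are effectors, which carry a lysine there and gather on the vacuole of a parasite such as Toxoplasma, whose membrane then breaks. Interferon gamma induces both classes, and in macrophages type I interferon induces them as well.

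The promoters are shown because regulators and effectors share a block of interferon-response sequence in them. Of the 6 genes, 5 had an entry in the RefSeq promoter table (build GRCm38.p6, 250 bases before to 50 bases after the transcript start), and Iigp1 had none. The capitals mark matches to the core of the interferon-stimulated response element (ISRE, searched as GAAA, any 2 bases, GAAA) and to the gamma-activated sequence (GAS, searched as TTC, any 3 bases, GAA), both searched on both strands. The windows of 80 bases, each on the strand of its gene, were chr11:48871421-48871500 (minus strand) for Irgm1, chr11:58214868-58214947 (plus) for Irgm2, chr11:58199476-58199555 (plus) for Igtp, chr11:48992289-48992368 (minus) for Tgtp1 and chr11:49064248-49064327 (minus) for Tgtp2.
Irgm1: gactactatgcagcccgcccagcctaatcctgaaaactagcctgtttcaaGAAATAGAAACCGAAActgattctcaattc
Irgm2: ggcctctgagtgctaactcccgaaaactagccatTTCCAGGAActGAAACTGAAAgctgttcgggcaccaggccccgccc
Igtp: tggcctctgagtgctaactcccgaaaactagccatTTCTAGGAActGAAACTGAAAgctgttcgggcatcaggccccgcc
Tgtp1: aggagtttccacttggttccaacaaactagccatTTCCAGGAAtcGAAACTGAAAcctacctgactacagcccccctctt
Tgtp2: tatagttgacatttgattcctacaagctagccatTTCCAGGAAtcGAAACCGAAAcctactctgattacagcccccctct

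All 5 promoters held the ISRE core, which 3.44% of the 32851 promoters in the table held, and 4 of the 5 held the GAS, which 8.3% held. In Irgm2, Igtp, Tgtp1 and Tgtp2 the ISRE core began 11 bases after the start of the GAS. A GAS followed within 20 bases by an ISRE core on the same strand was found in 37 of the 32851 promoters (0.113%), and this spacing rule was set after the members' sequences were seen. The block of 29 bases that runs from the letters ctagcc, which all 5 windows hold, to the end of the ISRE core differed at 1 base between Irgm2 and Igtp, at 1 base between Tgtp1 and Tgtp2, and at 2 to 4 bases between these regulators and these effectors. The Irgm1 window held a pair of overlapping ISRE matches and no letters matching the GAS. In the 5 promoters the flank and motif matches began between 96 and 24 bases before the transcript start.

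**Figure D1:**
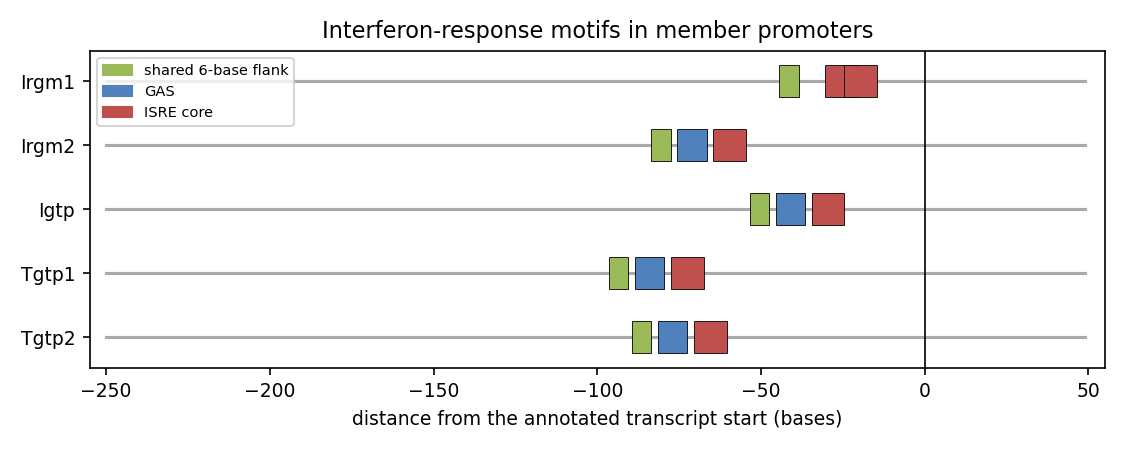
Positions of the shared 6-base flank (green), the GAS (blue) and the ISRE core (red) in the promoters of 5 genes, by distance in bases from the annotated transcript start (vertical line). Irgm2, Igtp, Tgtp1 and Tgtp2 show flank, GAS and ISRE in the same order and spacing, while Irgm1 has no GAS match in the window.

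Per the table (build GRCm39), 5 genes lie on chromosome 11 and Iigp1 (ENSMUSG00000054072) lies on chromosome 18, 60509099 to 60525706, plus strand. Irgm1 (ENSMUSG00000046879, 48752795 to 48762510), Tgtp1 (ENSMUSG00000078922, 48876154 to 48884999) and Tgtp2 (ENSMUSG00000078921, 48948021 to 48955033) follow each other on the minus strand. Igtp (ENSMUSG00000078853, 58090382 to 58098417) and Irgm2 (ENSMUSG00000069874, 58090444 to 58113608) lie on the plus strand, and 99.2% of the span of Igtp is inside that of Irgm2. Reads in the stretch they share may have been counted for either gene. Tgtp1 and Tgtp2 are close copies. Of all stretches of 100 bases in Tgtp1 transcripts, 70.3% occur unchanged in Tgtp2 transcripts, and 76.8% of those of Tgtp2 occur in Tgtp1. Between Irgm2 and Igtp that share was 3.01% of Irgm2 and 5.16% of Igtp stretches, and for Irgm1 and Iigp1 none was found in another gene. The division of reads between Tgtp1 and Tgtp2 is therefore uncertain. Strand was not stated for the counting, and the span of Olfr56 on the opposite strand, with 131 to 271 counts per library, covers both Tgtp genes. Gm12185, on the same strand as Tgtp1 and with 99 to 199 counts per library, covers 78.0% of the Tgtp1 span, and 5.64% of the 50-base stretches of Tgtp1 occur in it.

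Total counts per library were 15545190 to 15728400 with HTR2C-positive and 12843971 to 16031723 with HTR2C-negative medium, and the 6 genes together held 0.378% to 0.419% of them in the P libraries and 0.505% to 0.588% in the N libraries. The macrophage label was met: all 8 macrophage markers listed, among them Adgre1 and Csf1r, were expressed, with a summed level of 22936 to 25742 CPM (counts scaled to library size) with HTR2C-positive and 24280 to 26227 CPM with HTR2C-negative medium. Most of this sum was Lyz2, at 16040 to 18643 CPM in the P and 16736 to 18302 CPM in the N libraries. Adgre1 varied within groups, at 897 to 1846 CPM in the P and 1073 to 1694 CPM in the N libraries. Of these 8, Csf1r was higher at an unadjusted p of 0.00512 in edgeR's fit (adjusted p = 0.141), at 171, 130.0 and 191 CPM in P1, P2 and P3, against 83.9, 127 and 106 CPM in N1, N2 and N3 (log2 fold change 0.63). Of the marker lists of other cells, those of T and NK cells (P libraries 1.33 to 4.76 CPM, N libraries 1.41 to 2.62 CPM), B cells (P 2.06 to 2.71 CPM, N 1.08 to 2.03 CPM) and dendritic cells (P 7.01 to 9.76 CPM, N 3.62 to 8.53 CPM) were near 0. Alveolar macrophage markers summed to 145 to 158 CPM in the P and 144 to 152 CPM in the N libraries, and fibroblast and endothelial markers to 71.2 to 86.4 CPM in the P and 66.7 to 77.9 CPM in the N libraries. Of 10 neutrophil markers 7 were tested, each with a positive fold change, and they summed to 984 to 1230 CPM with HTR2C-positive and 813 to 1017 CPM with HTR2C-negative medium. The neutrophil genes Ly6g and Cxcr2 had 0 counts in each library, and the part of this list in the results below was not tested. By correlation across genes P1 and N2, of different groups, were the most alike pair (r = 0.980), while by a chi-square of their counts it was N1 and N3 (8.56 per degree of freedom), then P2 and P3 (30.5), with P1 and N2 at 35.5. In bulk RNA, fewer cells that express a gene and less of its RNA per cell cannot be told apart.

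The transcripts of the family spanned a wide range of levels. On the per-length scale of the deposited FPKM (reads scaled for gene length and library size), Tgtp2 ranked 57th of 21959 genes by its mean over the 6 libraries, Igtp 158th, Irgm1 367th, Iigp1 510th, Irgm2 932nd and Tgtp1 968th. Tgtp2 was at 684 ± 17.7 FPKM with HTR2C-positive medium and 1077 ± 136 FPKM with HTR2C-negative medium (SD, n = 3 each). Tgtp2 made up on average 55.4% of the summed FPKM of the 6 genes with HTR2C-positive medium (at most 57.4%) and 62.8% with HTR2C-negative medium (at least 59.3%). Its FPKM was 15.7 to 24.3 times that of its copy Tgtp1 with HTR2C-positive medium and 18.6 to 25.0 times with HTR2C-negative medium, so the groups overlapped in this ratio. The order Tgtp2, Igtp, Irgm1, Iigp1 held in each library. Below them the order of Irgm2 and Tgtp1 differed between the media: Irgm2 was at 43.7 to 52.4 FPKM and Tgtp1 at 27.9 to 42.9 FPKM with HTR2C-positive medium, whereas Irgm2 was at 37.1 to 40.4 FPKM and Tgtp1 at 43.7 to 50.4 FPKM with HTR2C-negative medium.

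Between the media, the 3 effector transcripts had fitted levels with HTR2C-positive medium of 57.3% to 63.9% of those with HTR2C-negative medium, while the 3 regulator transcripts were at 81.5% to 109%. In the test across all 10177 genes with enough counts (edgeR's quasi-likelihood test with Benjamini-Hochberg adjustment, threshold 0.05), 0 of the 6 genes passed, as did 0% of all tested genes. At an unadjusted p under 0.05, called nominal here, the 3 effectors were lower and no regulator was lower or higher, where 8.71% of all tested genes were lower and 7.9% higher. This split of the nominal calls did not hold once GC and length trends were removed, where Iigp1 lost its call and Irgm2 became nominally higher. In all, 1690 genes (16.6%) had a nominal p in edgeR's fit. At the adjusted threshold DESeq2 called 394 genes (3.87%) and limma-voom 0. On CPM scaled by TMM factors the groups did not overlap in 5 of the 6 genes, all lower with HTR2C-positive medium. Of all tested genes 11.5% were lower without overlap. On the FPKM scale, which carries no TMM factor, the groups of Irgm1 and Igtp overlapped. The levels below are CPM scaled by TMM factors, and a positive log2 fold change means a higher level with HTR2C-positive medium, given with its standard error (SE).

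Tgtp2, the most abundant effector, was at 1755, 2067 and 1946 CPM in P1, P2 and P3, against 4022, 2596 and 3455 CPM in N1, N2 and N3. The N libraries were all higher and spread more widely, with N2 nearest to the P libraries. The log2 fold change was -0.80 (SE 0.18, 95% interval -1.20 to -0.41), which places the HTR2C-positive level at 57.3% of the other, with an unadjusted p of 0.000693 and an adjusted p of 0.0844 in edgeR's fit. Its copy Tgtp1 was at 122, 92.9 and 95.9 CPM in P1, P2 and P3, against 183, 153 and 151 CPM in N1, N2 and N3. Here P1 was the library nearest to the N group, and the groups again did not overlap. Tgtp1 had a log2 fold change of -0.65 (SE 0.16, interval -0.99 to -0.30) and an adjusted p of 0.0942 in edgeR's fit. With the reads of both copies summed into 1 row, which removes the question of how they were divided, the log2 fold change was -0.80 (SE 0.18, adjusted p = 0.0832 in edgeR's fit).

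Iigp1, whose protein is the best-studied effector and assembles into oligomers on the vacuole, was at 410.3, 432 and 353 CPM in P1, P2 and P3, against 749, 547 and 592 CPM in N1, N2 and N3. The N libraries were all higher, with N1 well above the others. The log2 fold change was -0.66 (SE 0.17, interval -1.02 to -0.30), a level of 63.3% of that with HTR2C-negative medium, and the adjusted p was 0.0985 in edgeR's fit. For each of the 3 effectors the call depended on single libraries and on the tool. DESeq2 called all 3 (adjusted p = 0.0022 for Tgtp2, 0.0112 for Tgtp1 and 0.0094 for Iigp1), and no regulator, where it called 2.56% of all tested genes as lower. With no count filter edgeR called the same 3 genes, with 2.84% of 14861 genes called and 1.45% called lower. Without N2, edgeR called Tgtp2 and Iigp1 (adjusted p = 0.0243 and 0.0467), with 1.97% of all genes called and 1.21% called lower. Without P1 it called Tgtp1 (adjusted p = 0.0257), with 1.8% called and 1.09% called lower. Leaving out P1 and N2 together removes the pair across groups with the highest correlation, which widens the difference by construction. Without both edgeR called all 3 effectors and Irgm1, with 10.9% called and 6.42% called lower.

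**Figure D2:**
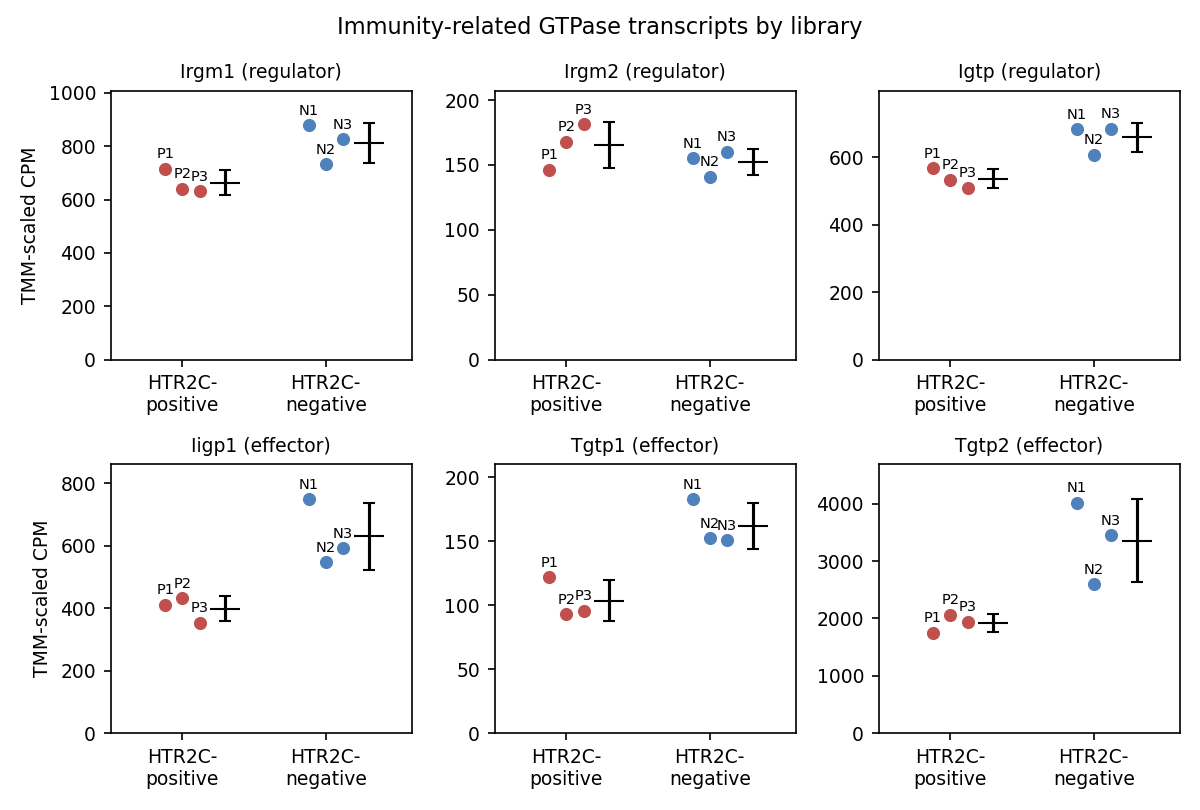
TMM-scaled CPM of each gene in the 3 libraries with HTR2C-positive medium (red) and the 3 with HTR2C-negative medium (blue), with the mean ± SD of each group in black. The groups are apart in 5 panels and overlap for Irgm2. Tgtp2 is at 1755 to 2067 CPM with HTR2C-positive and 2596 to 4022 CPM with HTR2C-negative medium.

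Among the regulators, Irgm1, which is needed for resistance to several intracellular bacteria in mice, was at 716, 641 and 631 CPM in P1, P2 and P3, against 879.8, 732 and 826 CPM in N1, N2 and N3. The groups did not overlap, but P1 and N2 lay close to each other. On the FPKM scale Irgm1 overlapped, at 106 to 139 FPKM with HTR2C-positive and 132 to 133 FPKM with HTR2C-negative medium. Its log2 fold change was -0.29 (SE 0.15, interval -0.62 to 0.030, adjusted p = 0.345 in edgeR's fit), a level of 81.6% of that with HTR2C-negative medium. Igtp, needed for resistance to Toxoplasma in mice, was at 567, 534 and 509 CPM in P1, P2 and P3, against 684, 608 and 684 CPM in N1, N2 and N3. It thus had nearly the same difference as Irgm1, with a log2 fold change of -0.30 (SE 0.14, interval -0.61 to 0.017, adjusted p = 0.327 in edgeR's fit). Igtp too overlapped on the FPKM scale, at 254 to 316 FPKM with HTR2C-positive and 298 to 318 FPKM with HTR2C-negative medium. The FPKM ratio of Igtp to Irgm1 was 2.28 to 2.39 with HTR2C-positive and 2.23 to 2.39 with HTR2C-negative medium.

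Irgm2, whose protein sits at the Golgi, was the only one of the 6 with a positive fold change. It was at 146, 168 and 182 CPM in P1, P2 and P3, against 155, 141 and 160.3 CPM in N1, N2 and N3. The groups overlapped, and the log2 fold change of 0.12 (SE 0.15, interval -0.20 to 0.44, adjusted p = 0.724 in edgeR's fit) leaves room for a difference in either direction. On the FPKM scale, which carries no TMM factor, its groups did not overlap. Within each library the FPKM ratio of Irgm2 to Igtp was 0.141, 0.172 and 0.195 in P1, P2 and P3, against 0.124, 0.127 and 0.128 in N1, N2 and N3, so all P libraries were higher. With Igtp and Irgm2 summed, because their spans overlap, the log2 fold change was -0.21 (SE 0.14, adjusted p = 0.489 in edgeR's fit).

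Setting effectors beside regulators within each library removes any scaling factor between libraries, but not a trend with GC content or length. No ratio with that trend removed was computed. The summed FPKM of Iigp1, Tgtp1 and Tgtp2 was 795, 775 and 801 in P1, P2 and P3, against 1369, 1085 and 1229 in N1, N2 and N3. That of Irgm1, Irgm2 and Igtp was 499, 403 and 436 in the P libraries and 468, 492 and 486 in the N libraries, with overlap. The effector sum was 1.59, 1.92 and 1.84 times the regulator sum in P1, P2 and P3, against 2.92, 2.21 and 2.53 times in N1, N2 and N3. All P libraries lay below all N libraries, with a difference of -0.51 in the mean log2 ratio, where the pooled SD within groups was 0.18. Tgtp2 alone made up 84.6% to 88.0% of the effector sum in the P libraries and 86.2% to 88.8% in the N libraries. The difference in the mean log2 ratio was -0.39 with Tgtp2 left out of the effectors, and -0.61 to -0.41 with each library left out in turn. Single pairs gave the same order: the FPKM ratio of Iigp1 to Irgm1 was 0.558 to 0.672 with HTR2C-positive and 0.715 to 0.850 with HTR2C-negative medium, and that of Tgtp2 to Igtp 2.13 to 2.66 with HTR2C-positive and 2.94 to 4.05 with HTR2C-negative medium. These ratios are a description without a test, since the genes were chosen with earlier results of these data known.

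**Figure D3:**
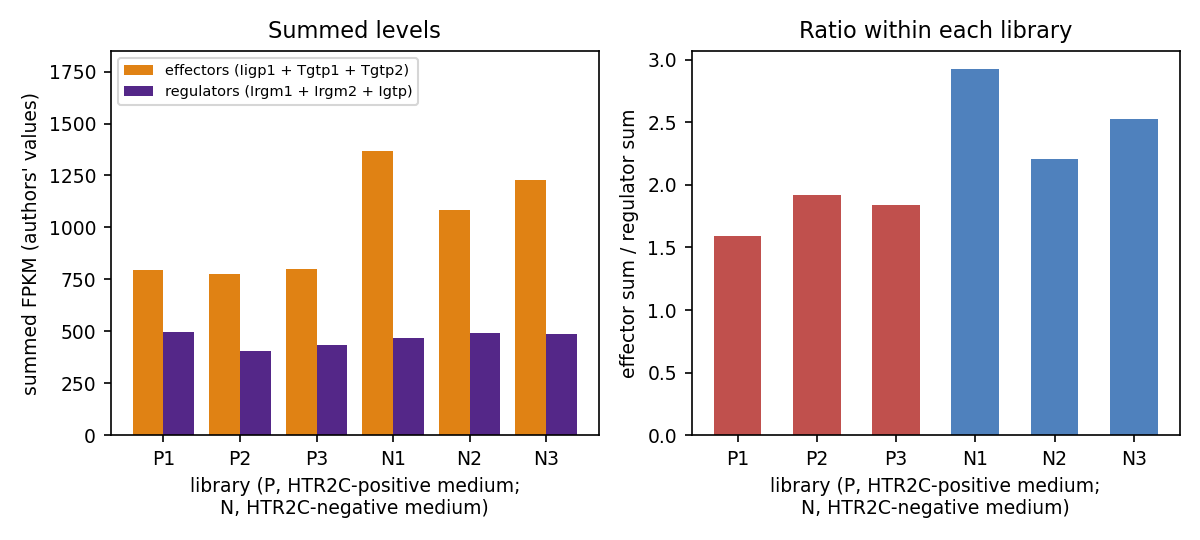
Left, the authors' FPKM summed over the 3 effectors (orange) and over the 3 regulators (violet) in each library. Right, their ratio, 1.59 to 1.92 in the libraries with HTR2C-positive medium (red) and 2.21 to 2.92 in those with HTR2C-negative medium (blue).

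Fold changes over all genes moved with the base composition of the transcripts (Spearman's rho of 0.54 between log2 fold change and GC content over 10162 genes, which are not independent replicates), and the part of this trend in the members' differences was not tested beyond the values here. The GC content of the members was 39.4% for Iigp1, 45.3% for Tgtp2, 45.8% for Irgm1, 46.4% for Tgtp1 and Irgm2 and 49.8% for Igtp. Among all tested genes within 1 percentage point of each member, the median log2 fold change was -0.33 for Iigp1, -0.17 for Tgtp2, -0.15 for Irgm1, Irgm2 and Tgtp1 and 0.0047 for Igtp. Once the dependence on GC content and length was taken out of every library, the log2 fold changes were -0.51 for Tgtp2, -0.41 for Tgtp1 and -0.31 for Iigp1, and -0.16 for Igtp, -0.10 for Irgm1 and 0.33 for Irgm2, with adjusted p from 0.313 to 0.832 in edgeR's fit. On this scale Iigp1 was no longer nominally lower (unadjusted p = 0.0562 in edgeR's fit) and Irgm2 was nominally higher (unadjusted p = 0.0303 in edgeR's fit). The values of Iigp1 (SE 0.14) and Igtp (SE 0.12) then lay close to each other. Scaling to total counts alone put the median of all genes at 0.16, against 0.020 with TMM factors, and the members' values at -0.65 (Tgtp2), -0.51 (Iigp1), -0.49 (Tgtp1), -0.15 (Igtp), -0.14 (Irgm1) and 0.26 (Irgm2). Under each of these scalings every gene kept the sign of its fold change.

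**Figure D4:**
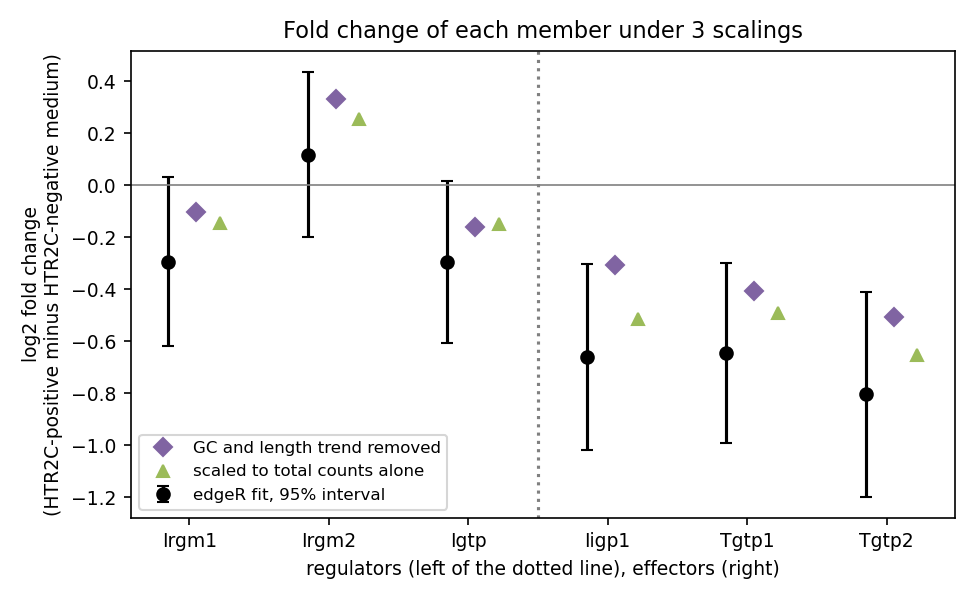
Log2 fold change of each gene (HTR2C-positive minus HTR2C-negative medium) in edgeR's fit with its 95% interval (black), with the GC and length trend removed (violet) and scaled to total counts alone (green). The effectors lie between -0.80 and -0.31 on all 3 scales and the regulators between -0.30 and 0.33.

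Other genes of the family gave a mixed picture. The nominal counts of this and the following lists stand beside 8.71% of all tested genes nominally lower and 7.9% higher. Counts of a few genes in a short list are not read as a result about it. The fold changes of the lists come from the fit with the GC trend left in, and its part in them was not tested. Ifi47 (IRGD), a lysine-type member on chromosome 11 that was singled out after its values were seen, was at 1274, 1176 and 1101 CPM in P1, P2 and P3, against 1395, 1343 and 1302 CPM in N1, N2 and N3. The groups did not overlap, yet its log2 fold change of -0.19 (SE 0.15, adjusted p = 0.555 in edgeR's fit) was nearer to those of Irgm1 and Igtp (-0.29 and -0.30) than to those of Iigp1, Tgtp1 and Tgtp2. Of 21 further symbols of the family and of the giant interferon-induced GTPases, 11 were in the table and 10 were tested. None passed the adjusted threshold, 3 were nominally lower and 0 higher, and the median log2 fold change was -0.19, against 0.020 over all tested genes. Gm4951, which shares 1.47% of the 50-base stretches of Iigp1, was at 326, 319 and 324 CPM in P1, P2 and P3, against 559, 445 and 487 CPM in N1, N2 and N3 (log2 fold change -0.62, SE 0.15, adjusted p = 0.0889 in edgeR's fit). F830016B08Rik (-0.62, overlapping groups) and Gvin1 (-0.43) were the other nominally lower genes. Of the 10 tested, 7 had a negative and 3 a positive fold change. Without overlap 2 were lower and 0 higher, where 11.5% of all tested genes were lower and 10.9% higher. Groups overlapped for Gm5431 (-0.16), 9930111J21Rik2 (-0.15), 9930111J21Rik1 (0.30) and Gm12185 (0.06). Irgq had a log2 fold change of 0.83 at only 2.12 ± 0.863 CPM with HTR2C-positive and 1.19 ± 0.381 CPM with HTR2C-negative medium (SD, n = 3 each), with overlap.

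The guanylate-binding proteins, large GTPases that act with the immunity-related GTPases on the same vacuoles, had 10 of 11 genes tested. None passed the adjusted threshold, and 4 were nominally lower and 0 higher, with a median log2 fold change of -0.34. Over all tested genes 8.71% were nominally lower and 7.9% higher. The smallest p values belonged to Gbp7 (-1.10), Gbp6 (-0.52) and Gbp9 (-0.64), whose groups did not overlap. Of 23 type I interferon-induced genes, 0 passed, 6 were nominally lower and 0 higher, and the median was -0.06, with Ifi209 (-0.87), Ifit2 (-0.68) and Ifit3 (-0.47) in front. That list held 11 positive and 12 negative fold changes. Without overlap, 9 of these 23 genes were lower and 1 higher, and of the 10 guanylate-binding protein genes 6 were lower and 0 higher. Of 22 other genes that interferon gamma induces, 0 passed, 5 were nominally higher and 0 lower, and the median was 0.15. Without overlap, 7 of these 22 were higher with HTR2C-positive medium and 3, Ido1, Cd274 and Ifi47, were lower. Over all tested genes 10.9% were higher and 11.5% lower without overlap. Ido1 was at only 0.983 CPM on average with HTR2C-positive and 1.92 CPM with HTR2C-negative medium. The difference between lists was not tested. The genes of this list with the smallest p were Gch1, the first enzyme of tetrahydrobiopterin synthesis (0.72), and the peptide transporter genes Tap2 (0.63, overlapping groups) and Tap1 (0.45).

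Upstream of the family, the ligand gene Ifng had a low level, at 0.571, 1.72 and 0.604 CPM in P1, P2 and P3, against 0.530, 1.10 and 1.95 CPM in N1, N2 and N3, where 3 counts correspond to 0.187 to 0.234 CPM before TMM scaling. Ifnb1 had 0 to 3 counts in each library. Of 13 ligand and interleukin genes listed, 6 were tested and 0 were nominally higher or lower (median log2 fold change -0.10), with Il27 (0.47), Ebi3 (0.26) and Il18 (-0.27) having the smallest p. Of 11 receptor and JAK-STAT genes, 0 passed, 2 were nominally higher and 1 lower (median 0.09), namely Tyk2 (0.77), Stat3 (0.63, overlapping groups) and Irf9 (-0.41). Over all tested genes 7.9% were nominally higher and 8.71% lower. The receptor and kinase genes of interferon gamma signalling showed small differences with overlapping groups: Ifngr1 had a log2 fold change of -0.17, Ifngr2 of 0.26, Jak1 of 0.09 and Jak2 of -0.20.

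Irf1, a transcription factor of the interferon gamma response, had higher values with HTR2C-positive medium, opposite to the effectors. Irf9, also a transcription factor but listed above with the JAK-STAT genes, had lower values without overlap (-0.41), like the effectors. Binding of either factor to the members' promoters was not measured. The trend with GC content was left in these values, and its part in the contrast was not tested. Irf1 was at 137, 151 and 155 CPM in P1, P2 and P3, against 106, 105 and 127 CPM in N1, N2 and N3 (log2 fold change 0.39, SE 0.15, adjusted p = 0.216 in edgeR's fit). Of 8 tested transcription factor genes of the pathway, 7 had a positive fold change, 2 were nominally higher and 0 lower, and the median was 0.37. Batf2 (0.53) and Ciita (1.23, at 1.91 ± 0.192 CPM with HTR2C-positive and 0.806 ± 0.526 CPM with HTR2C-negative medium) also had groups that did not overlap, and Irf8 (0.34) overlapped. Of 10 feedback genes, 2 were nominally higher and 2 lower, 0 passed, and the median was 0.31. Socs3 (0.64) and Socs1 (1.28), inhibitors of JAK kinases, had higher values, and the SUMO ligase gene Pias1 (-0.65) and the phosphatase gene Ptpn2 (-0.44) lower ones. Socs1 was at 43.6 CPM in P1 but at 15.9 and 13.4 CPM in P2 and P3, against 10.3, 12.2 and 7.53 CPM in N1, N2 and N3.

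A list of genes of the ATG8 conjugation system and of autophagy more widely had 16 genes tested, with a median of 0.04. None passed the adjusted threshold, and 2 were nominally lower and 0 higher, where 8.71% of all tested genes were lower and 7.9% higher. Becn1 (-0.40) and Tax1bp1 (-0.38), which are not conjugation genes, were the lower ones, and Map1lc3a (0.44) had the third smallest p. Of 7 genes of ubiquitin and its attachment 0 passed and 1, Ube2n (-0.40, overlapping groups), was nominally lower (median 0.05), and Trim21 had a log2 fold change of 0.24.

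**Figure D5:**
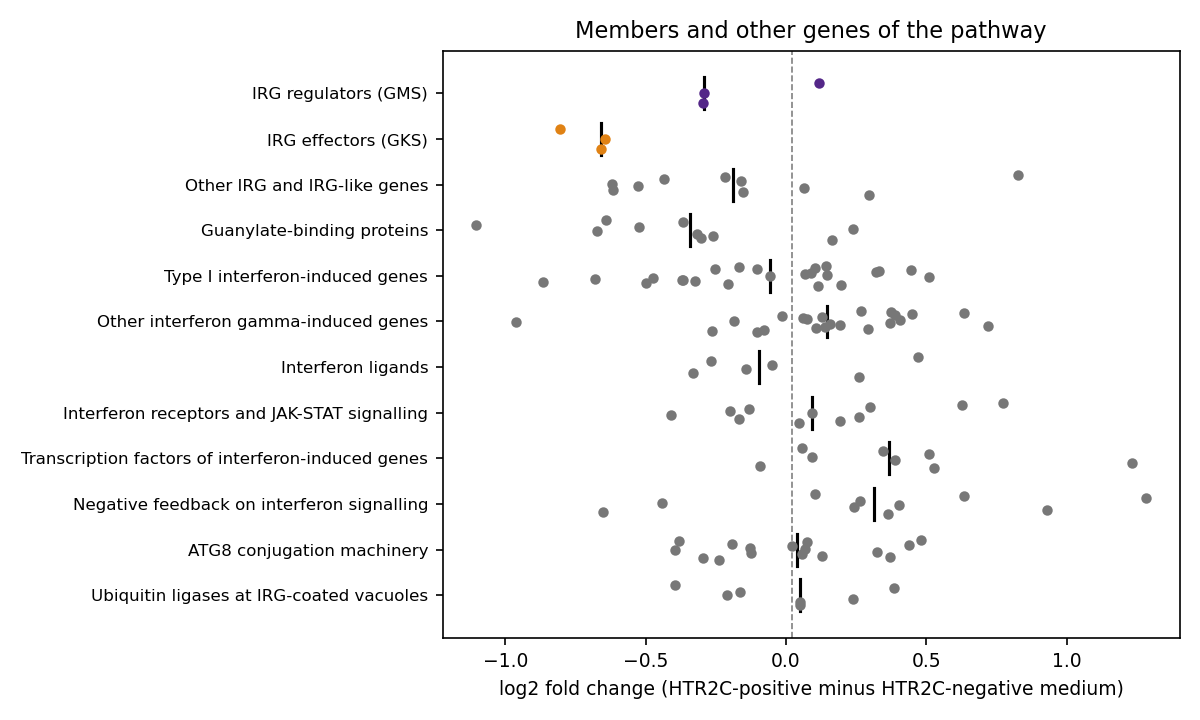
Log2 fold change (HTR2C-positive minus HTR2C-negative medium) of the tested genes of each list, with the list median as a black bar and the median of all tested genes as a dashed line. The trend with GC content was left in. The list labelled ATG8 conjugation machinery also holds other autophagy genes, and the list labelled ubiquitin ligases also holds other ubiquitin genes. The 3 effectors (orange) lie between -0.80 and -0.65, while 7 of the 8 transcription factor genes lie above 0.

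Across the 6 libraries, the log2 CPM of Irgm1, Igtp, Iigp1, Tgtp1 and Tgtp2 had pairwise Pearson correlations of 0.833 (Tgtp1 and Tgtp2) to 0.977 (Irgm1 and Igtp). Irgm2 had correlations of -0.63 to -0.18 with them. These values describe 6 libraries that share the group difference and the scaling. With group means removed, Tgtp1 deviated by 0.25, -0.15 and -0.10 in P1, P2 and P3, where Tgtp2 deviated by -0.13, 0.11 and 0.02. In N1, N2 and N3 the deviations were 0.18, -0.08 and -0.10 for Tgtp1 and 0.28, -0.35 and 0.06 for Tgtp2. The genes outside the family most like the mean of the 6 members, among 5310 genes of at least 10 CPM, were Vbp1 (r = 0.999), Tagap1 (0.999), Samsn1 (0.998), Trnt1 (0.997) and Luc7l3 (0.995), with log2 fold changes of -0.49, -0.73, -0.40, -0.73 and -0.61. In Vbp1, a prefoldin subunit gene, P1, P2 and P3 were at 70.9, 68.3 and 66.2 CPM, against 108, 83.9 and 97.3 CPM in N1, N2 and N3.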

How the data were processed

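RNA-seq of 6 libraries was analysed, 3 per medium. Per the labels' protocols, Trizol served for RNA extraction and a VAHTS Universal V6 kit for the libraries. Tools named in the submitters' processing notes are fastp, HISAT2, StringTie and edgeR, with build GRCm39. The sources used here do not state how strand and multi-mapping reads were handled, or with which annotation. The counts as deposited are raw reads per gene, per the file headers. The deposited FPKM equal the count over gene length and library total, to within a relative 3.80e-07.

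The test was edgeR 4.0.16 (R 4.3.3): filterByExpr (10177 of 21959 genes kept), TMM factors and the robust quasi-likelihood F test without covariates, with Benjamini-Hochberg adjustment over all tested genes. The SE is the fold change divided by the square root of F, and 95% intervals are not adjusted for multiple tests. Alternatives changed the tool (DESeq2 1.42.0, or voom in limma 3.58.1), the scaling (RLE factors or total counts), the filter (none, or at least 1 CPM in 3 libraries) or the design (a block for replicate number), or were removal of GC and length trends (splines with 4 degrees of freedom each, per library), and leaving out libraries. Reads of Tgtp1 and Tgtp2 were also summed. The sums of Igtp with Irgm2 and of all 6 genes, and the effector ratio without Tgtp2, were added after seeing the data. GC content and shared stretches came from GENCODE M21 transcripts (build GRCm38), matched by gene ID for 21851 genes. That build was not used for the genes' own positions.

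The members and gene lists were chosen with earlier results of these data known, so no pattern here is independent support for them. Genes named beyond the members were the 3 smallest p of each list, the core interferon gamma pathway genes and the 5 genes most correlated with the members. Some genes that this rule names are not reported here. Other genes named were chosen after their values were seen. Counting floors are 3 counts and cover counting error alone, since PCR copies of a read are not independent molecules.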

Additional observations from a re-analysis of the deposited data

How the results depend on the processing

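Every one of the 6 genes kept the sign of its fold change in all 16 alternatives, leaving out libraries included. None of the 6 passed the adjusted threshold in edgeR's fit, and the alternatives that changed this were those that also changed the number of genes called: 422 genes with no count filter, 394 with DESeq2 and 1107 without N2 and P1 together, against 0, with 0 to 206 when each library was left out in turn. With no count filter the called effectors had log2 fold changes of -0.78 (Tgtp2), -0.63 (Tgtp1) and -0.64 (Iigp1), with DESeq2 -0.81, -0.65 and -0.66, and without N2 and P1 together -0.88, -0.81 and -0.76, where Irgm1 was called as well at -0.41. Leaving out N2 and P1, the most correlated pair across groups, widens the difference by construction. For the other settings the cause was not tested. Leaving out each library in turn gave -0.95 to -0.66 for Tgtp2, -0.76 to -0.55 for Tgtp1, -0.75 to -0.52 for Iigp1, -0.36 to -0.24 for Irgm1, -0.35 to -0.25 for Igtp and 0.05 to 0.22 for Irgm2. Their adjusted p in these fits ranged from 0.0243 (Tgtp2 without N2) to 0.917 (Irgm2 without P3). With all 6 genes summed the log2 fold change was -0.61, given without a p because the genes were chosen with earlier results known. Much of that sum was Tgtp2. It had on average 1923 CPM of 3789 CPM with HTR2C-positive and 3358 CPM of 5773 CPM with HTR2C-negative medium.

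The labels number the libraries of both groups alike, but same-numbered libraries did not deviate together (r = -0.15, -0.23 and 0.05 across genes), and P1 deviated most like N2. With the replicate number as a block, 0 genes were called and the fold changes were -0.78 for Tgtp2, -0.65 for Tgtp1, -0.65 for Iigp1, -0.29 for Irgm1 and Igtp and 0.12 for Irgm2. With 3 libraries per group, a difference of the size seen for the regulators was not resolved from 0.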
